A study of Mus musculus with 8 samples.

Results

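The major histocompatibility complex (MHC) genes and the genes of antigen processing were followed in the liver RNA of male db/db mice given AF1 peptide or a control peptide. The 42 genes were all those of the table whose symbol starts with H2-, together with 12 named genes of peptide supply, peptide loading and MHC transcription, out of 21532 genes in all. By their names they fall into 2 classical class I heavy chains (H2-K1 and H2-D1), 18 non-classical class I genes, 9 class II genes, the 12 processing genes and 1 gene that makes no MHC molecule, H2-Ke6, which encodes a 17β-hydroxysteroid dehydrogenase. All 8 mice carried the leptin receptor mutation Leprdb, which leaves them obese and diabetic, on a C57BL/6J background, and ate standard chow. From 8 weeks of age, 4 mice received AF1 peptide and 4 the control peptide, each at 5 mg/kg body weight by retro-orbital injection 2 times per week for 5 weeks. AF1 peptide is a synthetic peptide made from an N-terminal region of estrogen receptor α with internal pieces left out. It is joined to an N-terminal, FITC-labelled TAT sequence that carries it into cells. Each library came from the frozen whole liver of 1 mouse.

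Class I molecules pair an H2 heavy chain with β2-microglobulin (B2m) and show peptides made inside the cell to CD8 T cells and natural killer cells. The peptides are cut by the proteasome, whose catalytic subunits are exchanged for Psmb8, Psmb9 and Psmb10 under interferon, carried into the endoplasmic reticulum by Tap1 and Tap2, trimmed by Erap1 and loaded with the help of tapasin (Tapbp) and its relative Tapbpl. Class II molecules (H2-A and H2-E) are made mainly by macrophages, dendritic cells and B cells, are guided by the invariant chain Cd74, and are loaded by H2-DM under the control of H2-O. Nlrc5 switches on class I transcription and Ciita class II transcription, both through a promoter module that contains an X box and a Y box. In the liver, hepatocytes make class I molecules and the secreted non-classical molecule H2-Q10, whereas class II RNA comes largely from Kupffer cells, the resident macrophages, and other immune cells.

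Promoter windows were searched for letters that match motifs of class I and class II regulation, and 4 are printed here. The 4 windows were chosen because H2-D1 and H2-Eb1 hold both X box and Y box letters, H2-Q10 holds neither while being the most abundant heavy chain in these livers, and H2-Aa holds a Y box with an X box match placed elsewhere. Each runs from 250 bases before to 50 bases after the gene's start in RefSeq (GRCm38.p6), 5′ to 3′ on the gene's strand. Capitals mark matches, on either strand, to the interferon response core GAANNGAAA, the kappa B motif GGGGANTCC, the X box core ACNGATG, the Y box CTGATTGG and the Y box core ATTGG, which the Y box contains. The positions are chr17:35262844-35263143 on the plus strand for H2-D1, chr17:35469839-35470138 on the plus strand for H2-Q10, chr17:34305617-34305916 on the plus strand for H2-Eb1 and chr17:34287774-34288073 on the minus strand for H2-Aa.
H2-D1: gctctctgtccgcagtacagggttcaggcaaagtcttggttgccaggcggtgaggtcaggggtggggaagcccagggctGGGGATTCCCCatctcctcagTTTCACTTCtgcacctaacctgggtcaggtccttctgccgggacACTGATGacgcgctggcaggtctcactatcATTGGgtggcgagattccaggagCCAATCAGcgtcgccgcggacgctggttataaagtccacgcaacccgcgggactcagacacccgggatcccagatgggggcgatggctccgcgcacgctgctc
H2-Q10: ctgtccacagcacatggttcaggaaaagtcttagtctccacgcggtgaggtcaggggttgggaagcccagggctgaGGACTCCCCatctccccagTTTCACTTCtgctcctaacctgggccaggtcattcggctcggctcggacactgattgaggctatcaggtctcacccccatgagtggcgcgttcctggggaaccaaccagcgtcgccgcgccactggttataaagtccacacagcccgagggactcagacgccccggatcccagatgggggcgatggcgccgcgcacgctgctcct
H2-Eb1: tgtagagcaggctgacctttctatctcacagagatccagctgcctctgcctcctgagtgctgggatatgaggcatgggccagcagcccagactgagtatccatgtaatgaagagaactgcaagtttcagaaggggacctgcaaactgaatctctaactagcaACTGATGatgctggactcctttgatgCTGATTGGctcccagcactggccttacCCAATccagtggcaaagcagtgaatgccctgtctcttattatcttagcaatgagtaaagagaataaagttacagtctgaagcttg
H2-Aa: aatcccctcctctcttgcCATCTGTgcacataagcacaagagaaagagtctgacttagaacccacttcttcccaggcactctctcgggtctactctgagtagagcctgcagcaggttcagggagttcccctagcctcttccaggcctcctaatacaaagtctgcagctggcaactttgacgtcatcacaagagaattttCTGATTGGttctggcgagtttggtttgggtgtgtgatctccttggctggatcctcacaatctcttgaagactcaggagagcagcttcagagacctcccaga
Counted from the start site, the H2-D1 window had kappa B letters at -171, the interferon core at -150, the X box core at -106 and the Y box at -53. H2-Q10 carried kappa B letters at -174 and the interferon core at -155 but no match to the X or Y motifs in this window. H2-Eb1 had the X box core at -88 and the Y box at -62, and neither kappa B nor interferon letters. In H2-Aa the Y box stood at -51 and the only X box core match at -232. The 4 windows do not stand for their classes. The other classical heavy chain, H2-K1, had kappa B, interferon and Y box letters but no X box core match. B2m, H2-T22, H2-T23, Tap1, H2-DMa and H2-Ob had no X box core match either. RefSeq windows were matched for 29 of the 42 genes (31 windows). The X box core was present in 15 of these 31 windows against 9.85% of all 32851 mouse promoter windows, the Y box in 13 against 4.10%, the interferon core in 9 against 7.52% and the kappa B motif in 6 against 1.19%. The shorter Y box core was in 25, against 37.4% of all windows. These are matches of letters and not measured binding.

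AF1 peptide treatment left the RNA of most MHC and antigen processing genes within the spread between mice. Normalized counts are each library's reads over its own size factor, and the recovered depth was 23031880 to 45117528 reads per mouse. Of the 42 genes, 38 passed the minimum of 10 normalized counts on average and were tested. H2-M2, H2-M5, H2-Oa and H2-Eb2 were below it and are not described further. A gene was called when limma gave an unadjusted p below 0.05 with a fold change above 1.3 on log2(normalized count + 1), a scale that understates the change of low genes. No gene of the 38 was called higher (1.79% of all 15989 tested genes were), and 3 were called lower (1.90% of all tested genes), all of them non-classical class I genes. None passed 5% after Benjamini-Hochberg adjustment over all genes: the smallest limma adjusted p among them was 0.763, with 3 genes at an unadjusted p below 0.05, and neither edgeR nor DESeq2 gave any an adjusted p below 0.05, with 2 at an unadjusted p below 0.05 in each.

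One AF1 peptide-treated mouse, replicate 1, stood apart for these genes. It had the lowest value of the 8 mice in 28 of the 38 tested genes, against 23.4% of all tested genes. The count was 2 of 2 for classical class I, 13 of 16 for non-classical class I, 6 of 7 for class II, 7 of 12 for processing genes and 0 of 1 for H2-Ke6. Relative to the median of the other 7 mice, its class II genes were at a median of 33.7%, its classical class I genes at 49.8% and 54.8%, and its processing genes at a median of 71.9%, whereas the median over all tested genes was 100.5%. Results are therefore given with and without this mouse.

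With all mice, 29 of the 38 log2 fold changes were negative, and without replicate 1 only 11 were. The median log2 fold change was -0.19 for classical class I, -0.15 for non-classical class I, -0.33 for class II and -0.02 for processing genes, against -0.0083 over all tested genes. Without replicate 1 these medians were 0.05, 0.08, 0.09 and 0.17, against -0.0036 over all genes. Scaling the libraries to equal totals moved the median of all genes to -0.10 and that of the 38 genes from -0.12 to -0.22.

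**Figure D1:**
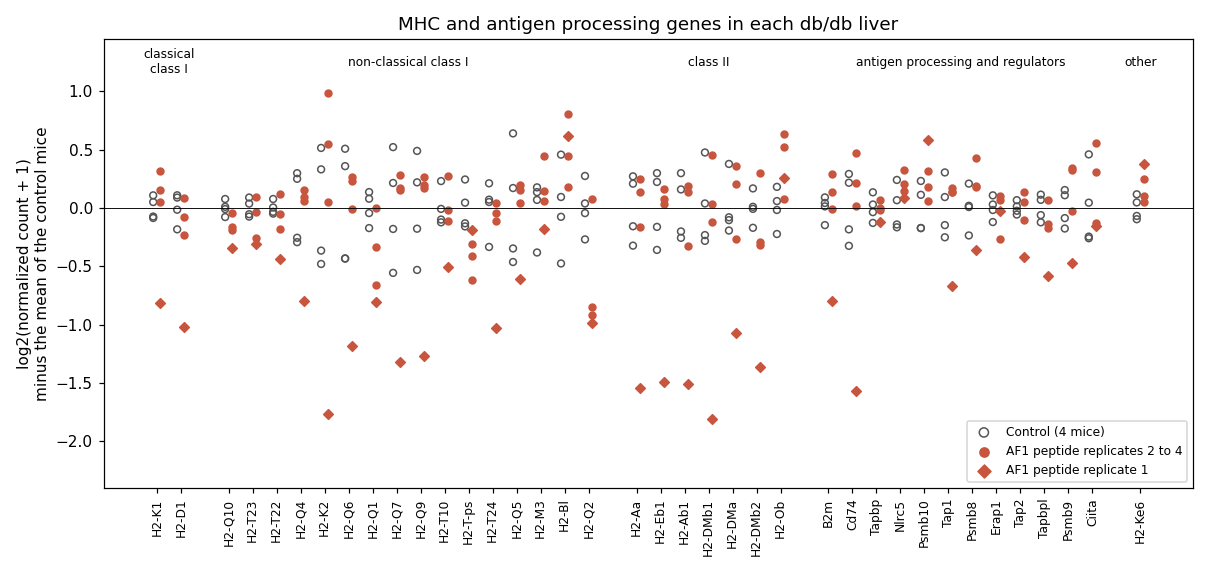
Each point is 1 liver, and the vertical axis is log2(normalized count + 1) minus the mean of the 4 control mice, for the 38 tested genes in their classes. The diamonds (AF1 peptide replicate 1) lie lowest in 28 of 38 genes and farthest down in H2-K2, H2-DMb1 and Cd74.

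**Figure D2:**
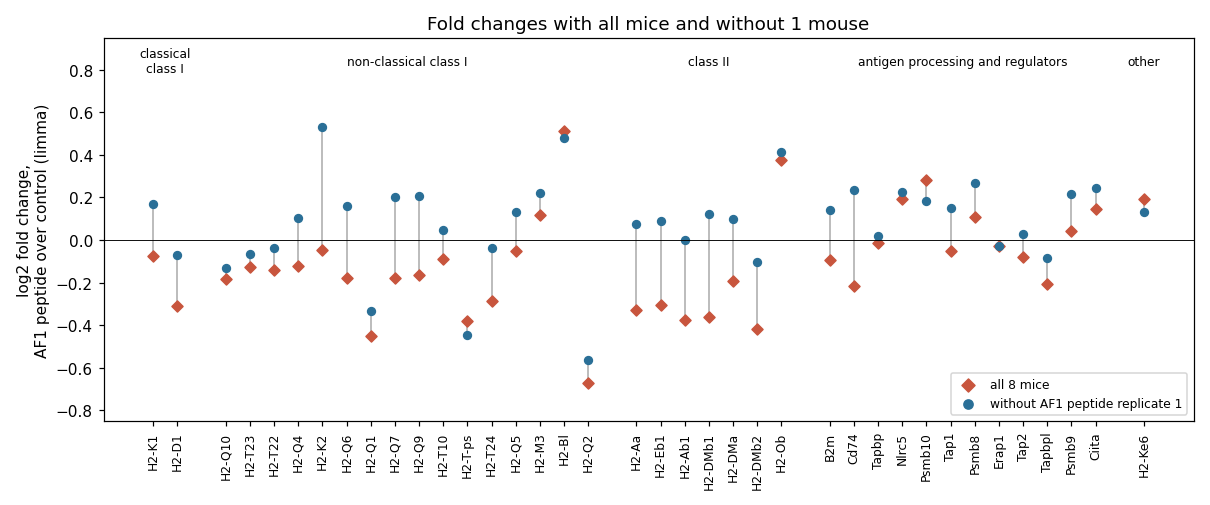
Diamonds give the limma log2 fold change of AF1 peptide over control with all 8 mice, circles the same without AF1 peptide replicate 1, and grey lines join the pair for each gene. The number of genes below 0 was 29 with all mice and 11 without that mouse.

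The classical heavy chains H2-K1 and H2-D1, which present peptides on nearly all cells, were abundant in every liver. H2-K1 was at 32198, 35399, 36833 and 32474 normalized counts in control mice and at 19392, 42449, 35319 and 37947 in AF1 peptide-treated mice. H2-D1 was at 15071, 18203, 16938 and 18452 in control mice and at 8437, 18210, 14573 and 16236 in treated mice. For both genes replicate 1 lay far below every other mouse, and the remaining treated mice overlapped the controls. The log2 fold change was -0.08 for H2-K1 (limma adjusted p = 0.958, 0.17 without replicate 1) and -0.31 for H2-D1 (limma adjusted p = 0.791, -0.07 without it). Although neither gene was called, their ratio separated the groups. The level of H2-K1 per kb was 1.88, 1.71, 1.91 and 1.54 times that of H2-D1 in control mice and 2.02, 2.05, 2.13 and 2.05 times in treated mice. All 4 treated mice, replicate 1 included, were above every control, with a mean of 2.06 ± 0.0469 (SD, n = 4) against 1.76 ± 0.168 (SD, n = 4). This ratio was singled out after its values were seen among 7 ratios of member genes. A two-sided exact permutation test gave p = 0.0286, the smallest that 4 against 4 mice allow, and an adjusted p of 0.2 over the 7 ratios. Without replicate 1 the exact permutation p was 0.0571, which is then the smallest possible. In the transcript annotation (GENCODE M21), 9.63% of the 50-base words of H2-K1 and 12.8% of those of H2-D1 also occur in other genes. Each is among the genes that share most with the other, so part of their reads may be exchanged.

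B2m, the light chain of every class I molecule, followed H2-K1 closely. Its normalized counts were 55938, 57086, 58998 and 50045 in control mice and 31915, 67953, 54980 and 61005 in treated mice, so replicate 1 was again the lowest and replicate 2 the highest. The log2 fold change was -0.09 (limma adjusted p = 0.944), or 0.14 without replicate 1. B2m stood at 1.54 to 1.74 times the count of H2-K1 in control mice and 1.56 to 1.65 times in treated mice, overlapping ranges that hold replicate 1 as well. Across the 8 mice the counts of B2m and H2-K1 correlated with r = 0.988 (exact permutation p = 0.000422, adjusted p = 0.00246 over 11 pairs) and rho = 0.929 (exact permutation p = 0.00223, adjusted p = 0.0123). Leaving out the 2 mice farthest from the median of B2m gave r = 0.804, and leaving out replicate 1 gave 0.918. For B2m and H2-D1 the pooled r of 0.885 (exact permutation p = 0.0483, adjusted p = 0.059, rho = 0.405 with exact permutation p = 0.327) fell to 0.138 without replicate 1 and was -0.25 without the 2 farthest mice, so it rested on those mice. H2-K1 and H2-D1 gave r = 0.907 (exact permutation p = 0.0341, adjusted p = 0.0469) and rho = 0.50 (exact permutation p = 0.216), with r = 0.283 without replicate 1 and -0.02 without the 2 farthest mice, and rested on them too.

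Among the non-classical class I genes, H2-Q10 dominated. This gene encodes a secreted class I molecule of the liver. Per kb of exon, its control mean of 21386 was above those of H2-K1 (11649) and H2-D1 (6656), and below B2m (64554). The length was all annotated exon bases of a gene over its transcripts, 4348 for H2-Q10 and 2938 for H2-K1. Levels set against each other between genes depend on that choice. The next heavy chain was H2-T23, which encodes Qa-1, the ligand of the CD94/NKG2A receptor, at 1481. The level per kb was summed over 19 class I genes (all but H2-Q9, which had no length). These include H2-K2, H2-T-ps, H2-Bl, H2-Q5 and H2-T10, which are annotated as pseudogenes or polymorphic pseudogenes. Of this sum H2-Q10 made up 43.9 to 49.3% in control mice, 39.9 to 45.2% in treated mice other than replicate 1, and 55.4% in replicate 1, the highest share of all. Its normalized counts were 93566, 98011, 88054 and 92319 in control mice and 73278, 81451, 83150 and 90279 in treated mice. Only AF1 peptide replicate 4 reached into the control range. The difference did not pass the test, with a log2 fold change of -0.18 (SE 0.17, limma adjusted p = 0.835) and -0.13 without replicate 1. With an unmoderated variance for every gene it passed the unadjusted p threshold, but its fold change stayed below 1.3. H2-Q10 stood at 1.62 to 1.96 times the level of H2-K1 per kb in control mice, at 2.55 times in replicate 1 and at 1.297 to 1.61 times in the other treated mice. Of its 50-base words, 19.1% also occur in other genes, H2-Q7 and H2-K1 among them, so part of its reads may be exchanged.

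The 3 genes called lower were H2-T-ps, H2-Q1 and H2-Q2. H2-T-ps, an annotated pseudogene of the T region, had normalized counts of 331, 289, 255 and 250 in control mice and 245, 210, 182 and 226 in treated mice. Every treated mouse was below every control (1.85% of all tested genes showed such a separation downward and 2.05% upward, and of the 38 genes 1 and 0 did). Its log2 fold change was -0.38 (SE 0.14, limma adjusted p = 0.763), only just past the fold threshold. In replicate 1 its level was 98.0% of the other mice's median, and without that mouse the log2 fold change was -0.44 and the gene was still called. When single mice were left out in turn, the call was lost for 4 of the 8 (Control replicate 1 or 2, or AF1 peptide replicate 2 or 3), where the log2 fold change was -0.30 to -0.37, and with a pseudocount of 5, where it was -0.37. In the transcript annotation (GENCODE M21), 29.4% of the 50-base words of H2-T-ps also occur in other genes, most of them in H2-T23, and the gene overlaps Gm7030 on the same strand, so part of its reads may belong to these.

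H2-Q1, a class I gene of the Q region, had normalized counts of 1437, 1320, 1495 and 1207 in control mice and 778, 1079, 858 and 1361 in treated mice. Replicates 1 to 3 of the treated mice lay below every control, whereas replicate 4 lay among them. The log2 fold change was -0.45 (SE 0.17, limma adjusted p = 0.763), and -0.33 without replicate 1, a change then below 1.3-fold. Its call was also lost without AF1 peptide replicate 3, Control replicate 1 or Control replicate 3. H2-Q2, its neighbour, was a low gene with 37.1, 29.5, 31.3 and 25.1 normalized counts in control mice and 14.9, 16.4, 15.7 and 32.1 in treated mice, again with replicate 4 among the controls. Its log2 fold change was -0.67 (SE 0.29, limma adjusted p = 0.763), and -0.57 without replicate 1, no longer past the p threshold. With single mice left out in turn, its call held for only 2 of the 8, replicate 4 of either group. As few as 9 reads lay behind a value of H2-Q2, and neither edgeR nor DESeq2 on the recovered reads called it. H2-Q1 and H2-Q2 share sequence mainly with each other: 15.0% of the words of H2-Q1 and 16.1% of those of H2-Q2 occur in other genes. Without replicate 1, only H2-T-ps was still called lower and no gene of the 38 was called higher, against 3.07% and 2.86% of all tested genes.

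**Figure D3:**
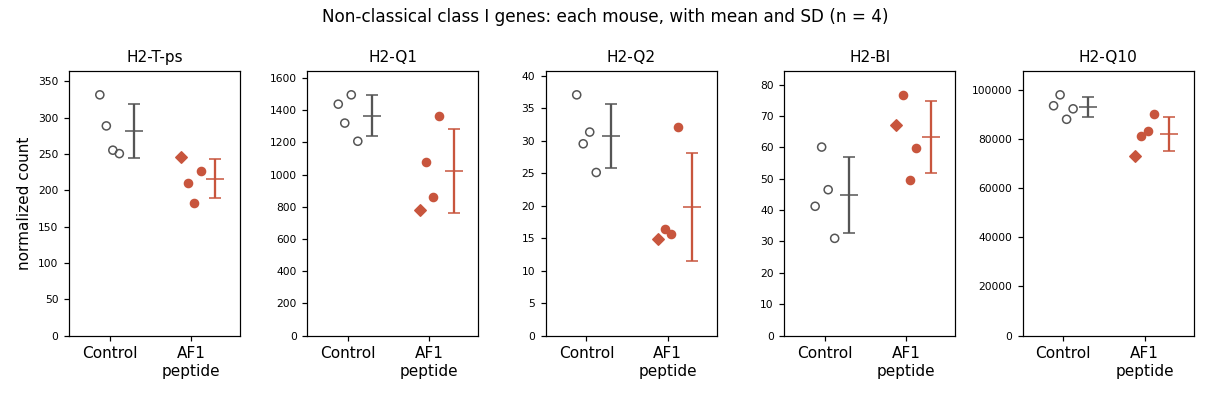
Normalized counts of 5 non-classical class I genes in each mouse, with open circles for control mice, filled circles for AF1 peptide-treated mice and a diamond for AF1 peptide replicate 1. Horizontal marks are means and bars are SD (n = 4), and only H2-T-ps shows no overlap between the groups.

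The remaining non-classical genes did not pass the test. H2-Bl, annotated as a polymorphic pseudogene, had the highest log2 fold change, 0.51 (SE 0.23, limma adjusted p = 0.763). Its normalized counts were 41.2, 60.1, 46.5 and 31.0 in control mice and 67.2, 76.7, 49.4 and 59.7 in treated mice, with overlap. H2-K2, annotated as a transcribed pseudogene, had the lowest relative level in replicate 1. It was at 401 there, against 1424 to 2714 in the other treated mice and 982 to 1959 in control mice. Its log2 fold change went from -0.04 to 0.53 without that mouse. H2-Q7 and H2-Q9, which encode the GPI-anchored Qa-2, were at 0.981 to 1.04 times each other in every mouse, so their reads may be shared between the copies. H2-T22 and H2-T10 are ligands of γδ T cells, and H2-T10 is annotated as a polymorphic pseudogene. They share 53.5% and 50.4% of their words with other genes, and their fold changes (-0.14 and -0.09) cannot be assigned to 1 gene with certainty. H2-M3, which presents N-formylated peptides, was at 38.9 to 57.8 in control mice and 44.8 to 70.0 in treated mice.

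Class II genes showed no called change, and replicate 1 had the lowest value in 6 of the 7 tested. H2-Aa, the α chain of the H2-A molecule, was at 1108, 1243, 1601 and 1672 normalized counts in control mice and 475, 1240, 1647 and 1523 in treated mice. H2-Ab1, its β chain, was at 895, 930, 1193 and 1315 in control mice and 374, 851, 1221 and 1175 in treated mice. H2-Eb1, the β chain of H2-E, was at 899, 1031, 1347 and 1419 in control mice and 411, 1180, 1217 and 1292 in treated mice. No gene for an α chain of H2-E was in the set, so its values do not show whether H2-E molecules were made. In all 3 genes replicate 1 was below every other mouse and the other treated mice lay inside or close to the control range. Their log2 fold changes were -0.33, -0.38 and -0.30 (limma adjusted p = 0.850, 0.825 and 0.854) with all mice and 0.08, 0.000076 and 0.09 without replicate 1.

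Cd74, the invariant chain, was at 2350, 2592, 3603 and 3420 normalized counts in control mice and 991, 2981, 4088 and 3413 in treated mice, with replicate 1 again the lowest and AF1 peptide replicate 3 the highest. Its log2 fold change was -0.22 (limma adjusted p = 0.915), or 0.24 without replicate 1. Cd74 and H2-Aa correlated across the mice with r = 0.989 (exact permutation p = 0.000446, adjusted p = 0.00246 over 11 pairs) and rho = 0.905 (exact permutation p = 0.00456, adjusted p = 0.0167). The r was 0.876 without the 2 mice farthest from the median of Cd74 and 0.930 without replicate 1. H2-Aa and H2-Ab1 gave r = 0.993 (exact permutation p = 0.000794, adjusted p = 0.00291) and rho = 0.976 (exact permutation p = 0.000397, adjusted p = 0.00437), and r stayed at 0.978 and 0.955 under the same exclusions. Points of these correlations share their library and its scaling. The peptide editors varied alike, with H2-DMa at 131 to 195 in control mice and 70.9 in replicate 1, and H2-DMb1 at 142 to 240 and 48.5, although reads of H2-DMb1 and H2-DMb2 may be exchanged (22.7% and 25.9% shared words). H2-Ob, a subunit of the H2-DM inhibitor H2-O, was the exception at 17.7 to 23.8 in control mice and 22.0 to 32.9 in treated mice, with 25.2 in replicate 1 (log2 fold change 0.37, limma adjusted p = 0.777).

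The regulator Ciita did not follow the class II genes in replicate 1. It was at 88.2, 71.9, 118 and 71.2 normalized counts in control mice and 76.5, 106, 126 and 78.1 in treated mice, with replicate 1 inside the control range and overlapping groups (log2 fold change 0.14, limma adjusted p = 0.903). Its correlation with Cd74 did not pass the test (r = 0.447, exact permutation p = 0.278, adjusted p = 0.305; rho = 0.476, exact permutation p = 0.243; r = 0.587 without the 2 farthest mice).

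Markers of macrophages and B cells were low in AF1 peptide replicate 1, and those of dendritic cells less uniformly so. The summed normalized count of 10 Kupffer cell and macrophage markers was 6179 to 7732 in control mice, 6714 to 7371 in AF1 peptide replicates 2 to 4 and 2813 in replicate 1, where 9 of the 10 were at their lowest. Of these 10 markers, 1 was called lower and 0 higher, against 1.90% and 1.79% of all tested genes. The 1 gene was Adgre1 (F4/80), at 61.0, 81.7, 45.4 and 85.4 in control mice and 27.1, 45.7, 50.3 and 48.7 in treated mice. Its log2 fold change was -0.66, and -0.45 and not called without replicate 1. Of the 10 log2 fold changes, 9 were negative and 1 positive with all mice, and 5 were negative and 5 positive without replicate 1. The sum of 6 B cell markers was 169 to 226 in control mice, 152 to 283 in replicates 2 to 4 and 59.7 in replicate 1, the lowest for all 6. Dendritic cell markers (8 genes) summed to 462 to 597 in control mice, 566 to 790 in replicates 2 to 4 and 414 in replicate 1. In that mouse 5 of the 8 were at their lowest, whereas Clec9a, at 178, lay inside the control range of 148 to 211. The sum of T and NK cell markers (7 genes) did not set it apart, at 91.5 against 47.8 to 93.8 in control mice and 63.9 to 86.5 in the other treated mice. Single genes of this low list went different ways in replicate 1. Cd3e (34.5), Cd8a (21.5) and Cd3d (10.3) were at their highest of the 8 mice there, Cd4 (10.3) was at its lowest, and the others lay in between. Sinusoidal endothelial markers (6 genes) summed to 4200 to 4850 in control mice, 3828 to 4669 in replicates 2 to 4 and 4019 in replicate 1. Hepatocyte markers (6 genes, led by Alb) summed to 2381440 to 2505350 in control mice, 2063470 to 2483490 in replicates 2 to 4 and 1689180 in replicate 1, and marked every sample as liver. Most of that sum was Alb, and the 6 genes went different ways in replicate 1. Alb, Apoa1 and Ttr were at their lowest of the 8 mice there, whereas Cps1, Tat and Serpina1a were at their highest. Of all these markers only the NK cell gene Ncr1 was at 0 in any mouse, and none was at 0 in all. The part of these cell types in the values of the MHC genes was not tested, and in whole liver fewer cells of a type and less RNA per cell cannot be told apart.

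**Figure D4:**
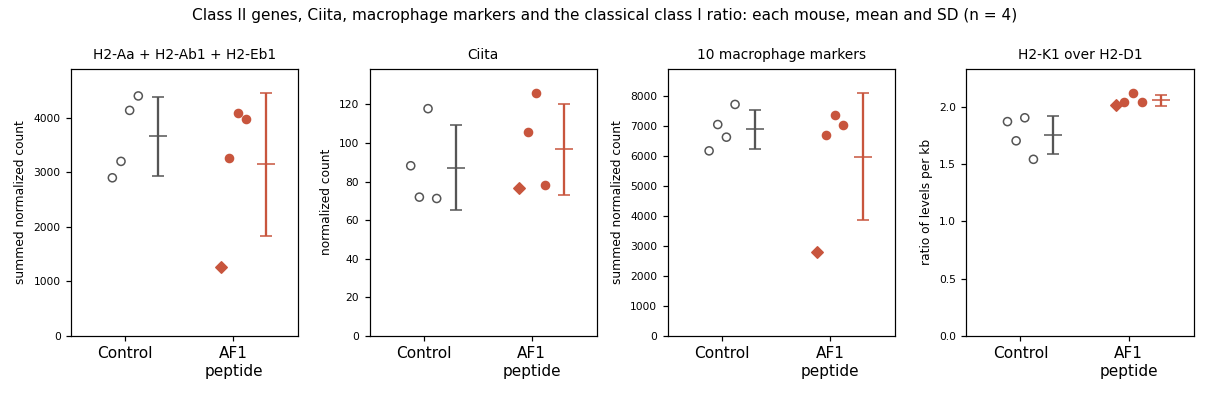
From left to right, the panels show for each mouse the summed normalized count of H2-Aa, H2-Ab1 and H2-Eb1, the normalized count of Ciita, the summed count of 10 macrophage markers and the ratio of H2-K1 to H2-D1 per kb, with means and SD (n = 4). Open circles are control mice, filled circles AF1 peptide-treated mice and the diamond AF1 peptide replicate 1, which is lowest for class II (1260) and macrophage markers (2813) but not for Ciita, while the H2-K1 to H2-D1 ratio does not overlap between the groups.

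No processing gene of class I was called, and in replicate 1 these genes lay between 55.9% (B2m) and 139% (Psmb10) of the median of the other mice. Nlrc5, the class I transactivator, was at 1067, 1085, 1254 and 1414 normalized counts in control mice and 1271, 1501, 1325 and 1382 in treated mice, so replicate 1 lay within the range of the other mice and the groups overlapped (log2 fold change 0.19, limma adjusted p = 0.774). Tap1, a chain of the peptide transporter, was at 632, 588, 865 and 747 in control mice and 440, 789, 771 and 771 in treated mice, with replicate 1 below all others (log2 fold change -0.05, limma adjusted p = 0.970, and 0.15 without it). The log2 fold changes of the other transport, trimming and loading genes were -0.02 for Tapbp, -0.03 for Erap1, -0.08 for Tap2 and -0.21 for Tapbpl (limma adjusted p = 0.781). Nlrc5 and B2m did not pass the test of correlation (r = 0.131, exact permutation p = 0.758, adjusted p = 0.758; rho = 0.214, exact permutation p = 0.619; r = -0.21 without the 2 farthest mice).

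The interferon-inducible proteasome subunits went different ways in replicate 1. Psmb8 was at 660, 557, 759 and 665 normalized counts in control mice and 510, 745, 746 and 886 in treated mice, with replicate 1 the lowest of all. Psmb9 was at 458, 487, 576 and 559 in control mice and 372, 650, 508 and 658 in treated mice. Psmb10 was at 740, 740, 902 and 979 in control mice and 1250, 868, 942 and 1038 in treated mice, where replicate 1 was the highest of all 8. Their log2 fold changes were 0.11, 0.04 and 0.28 (limma adjusted p = 0.901, 0.973 and 0.763), and without replicate 1 they were 0.27, 0.22 and 0.18, all below 1.3-fold. Tap1 and Psmb9, neighbours transcribed in opposite directions, gave r = 0.875 (exact permutation p = 0.00479, adjusted p = 0.00878) and rho = 0.857 (exact permutation p = 0.0107, adjusted p = 0.0196), with r = 0.703 without replicate 1 and 0.657 without the 2 farthest mice.

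Each inducible subunit was also set against the constitutive subunit whose place it takes, as a log2 ratio of normalized counts. The ratio of Psmb10 to Psmb7 was -2.19, -2.21, -1.64 and -1.53 in control mice and -1.23, -1.76, -1.28 and -1.51 in treated mice, and 3 of the 4 treated mice were above every control. The means were -1.89 ± 0.36 and -1.45 ± 0.24 (SD, n = 4), a difference of 0.45 that did not pass the two-sided exact permutation test (p = 0.114, adjusted p = 0.343 over 3 ratios). Psmb8 to Psmb5 differed by 0.15 (exact permutation p = 0.371, adjusted p = 0.557) and Psmb9 to Psmb6 by 0.05, which did not pass either. The smallest p that this design allows is 0.0286.

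Further genes of the pathway were compared in the same way. Of 47 genes in 5 lists, 0 were called in either direction, against 1.79% of all tested genes called higher and 1.90% called lower, and 0 had an unadjusted p below 0.05 in limma, edgeR or DESeq2, against 990 of all 15989 tested genes in limma. The median log2 fold change was -0.07 for 6 genes of folding and loading in the endoplasmic reticulum, -0.02 for 10 genes of cytosolic peptide supply, 0.01 for 16 genes of transcription and interferon gamma signalling, and 0.03 for 6 class I-like molecules outside the MHC. For 9 genes of class II proteolysis and turnover it was -0.19, and all 9 values were negative. Without replicate 1, 8 of these 9 were negative, with a median of -0.13, and 1 of the 47 genes was then called, against 2.86% of all tested genes called higher and 3.07% called lower. This was Ctsl, a lysosomal cysteine protease, with a log2 fold change of -0.51 without replicate 1 and -0.19 with all mice, named after its value was seen. H2-Ke6, the gene that makes no MHC molecule, was at 3009 to 3489 normalized counts in control mice and 3336 to 4188 in treated mice, with the highest value in replicate 1 (log2 fold change 0.19, limma adjusted p = 0.763).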

How the data were processed

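Stranded mRNA libraries were made from the livers of 4 control and 4 AF1 peptide-treated male db/db mice. The authors used TrimGalore 0.6.7 for trimming, HISAT2 for alignment, SAMtools 1.17 for sorting and GenomicAlignments for counting. They deposited normalized counts, a signal in which the reads of a gene are scaled by the library's own size factor. The submitters' processing notes name mm39. The annotation, the use of strand and the treatment of multiply mapping reads are not given in the sources used here. All 172256 deposited values (100%) were whole reads when divided by their library's step (tolerance 0.01 reads).

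Groups came from the sample labels. Differences in log2(normalized count + 1) were fitted by limma 3.58.1 (R 4.3.3) with its intensity trend. Genes averaging fewer than 10 were left out, which kept 15989, and p values were adjusted by the Benjamini-Hochberg method over all of them. The call rule was p below 0.05 and more than 1.3-fold. Ratios and correlations were tested by two-sided exact permutation over mice. Alternatives were edgeR 4.0.16 and DESeq2 1.42.0 on recovered reads, other pseudocounts, filters, scalings and variances, the replicate block, and each mouse left out. Levels per kb and shared 50-base words used GENCODE M21 (GRCm38), in which 41 of the 42 genes were found. The length of a gene was the union of its exons over all annotated transcripts. Reads of near-identical H2 genes may be exchanged between them, and the depth of 23031880 to 45117528 reads limits the lowest genes most.

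The genes and lists were chosen with earlier results of these data known. Any tested gene of the set could be named. Every mouse's value is given for called genes and for 13 main genes, other genes are given by range with the largest changes, and wider pathway genes are named only if called. Mice of a group were separate animals, and their libraries differed by 16.1 to 344 in chi-square per degree of freedom, so none was a duplicate.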

Additional observations from a re-analysis of the deposited data

Results flagged for a closer look

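Values on the log2(normalized count + 1) scale for the genes whose mouse values are given, and the summed cell type markers, were searched for a mouse far from the 3 others of its group, and 4 of 50 groups of values held one. Chance gives about 1 in 20. In 3 of the 4 the mouse was AF1 peptide replicate 1.

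Tap1 was at 8.79 on the log2 scale in AF1 peptide replicate 1 and at 9.59 to 9.63 in the other treated mice, so the gap took 0.960 of the group's range. H2-Eb1 was at 8.69 in that mouse and at 10.2 to 10.3 in the others, a gap of 0.921 of the range. The summed count of 10 Kupffer cell and macrophage markers was 2813 in it and 6714 to 7371 in the others, a gap of 0.856. H2-Q2 stood out the other way, at 5.05 in AF1 peptide replicate 4 and 3.99 to 4.12 in the others, a gap of 0.877. The part of the macrophage markers in the 2 genes' values was not tested.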

How the results depend on the processing

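The number of genes called lower was 3 and ranged from 0 to 3 when each mouse was left out: it was 0 without Control replicate 1 or AF1 peptide replicate 3, 1 (H2-T-ps) without AF1 peptide replicate 1 or Control replicate 3, and 1 (H2-Q1) without AF1 peptide replicate 2 or Control replicate 2. Under the other alternatives it was 2 or 3, with H2-T-ps lost at a pseudocount of 5, H2-Q1 with unmoderated variances, and H2-Q2 in edgeR, DESeq2 and the fit with the replicate block. The number called higher was 0 and ranged from 0 to 1 when each mouse was left out, and it was 1, H2-Bl in each case, with a minimum of 10 in every mouse, without the intensity trend and with the replicate block. With that block in limma, 2 genes were called lower (H2-Q1 and H2-T-ps) and H2-Q2 was not. Same-numbered mice correlated at -0.064 to 0.235 in their deviations from the group means (mean 0.103). Differently numbered mice correlated at -0.27 to 0.137 (mean -0.034). Whether same-numbered mice share more than a number was not tested.

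Leaving out AF1 peptide replicate 1 took the r of B2m and H2-D1 to 0.138, of H2-K1 and H2-D1 to 0.283, of Tap1 and Psmb9 to 0.703 and of Psmb8 and Psmb9 to 0.728, none past the exact permutation test. With equal totals the r of B2m and Nlrc5 was -0.18. The log2 ratio difference of Psmb9 to Psmb6 ranged from -0.082 to 0.17 when each mouse was left out. Over the same exclusions the log2 fold change ranged from -0.21 to 0.17 for H2-K1, -0.22 to 0.14 for B2m, -0.14 to 0.15 for Tap1, -0.058 to 0.22 for Psmb9, -0.52 to 0.075 for H2-Aa, -0.57 to 0.000076 for H2-Ab1, -0.46 to 0.091 for H2-Eb1 and -0.45 to 0.24 for Cd74. All of these changed sign, and with equal totals Psmb9 was at -0.048. The cause was not tested beyond the mouse left out. The depth of the low genes, with as few as 9 reads in a library for H2-Q2, limits what their fold changes show.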
